A study of Homo sapiens with 8 samples.

Results

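The transcripts of 7 matrix metalloproteases (MMP1, MMP2, MMP7, MMP9, MMP10, MMP14 and MMP15) and of 3 tissue inhibitors of metalloproteases (TIMP1, TIMP2 and TIMP3) were followed in SKOV3, a cell line established from a human ovarian cancer. The 10 genes were picked by symbol, and each matched 1 row among the 67008 genes of the raw count table. PDE10A, a phosphodiesterase that degrades cAMP and cGMP, had been targeted in 2 of the 4 lines, and the study asked what its loss does to β-catenin and RAS signalling. The lines were parental cells, the clone EV 1B9 with an empty vector, and the PDE10A knockout clones KO 5H5 and KO 2F4. Each line had 2 libraries from separate culture passages, so the controls (parental and EV 1B9) and the knockouts (KO 5H5 and KO 2F4) had 4 libraries each. All were labelled untreated and were grown in McCoy's medium with serum. EV 1B9, KO 5H5 and KO 2F4 are each 1 clone, so what PDE10A loss does and what sets a clone apart cannot be told apart within a single clone. The sources used here do not say where PDE10A was edited. In bulk RNA, fewer expressing cells and less RNA per cell cannot be told apart either.

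Matrix metalloproteases are zinc enzymes that cut the proteins of the extracellular matrix and are made as inactive precursors. MMP1 opens fibrillar collagen, MMP2 and MMP9 are the gelatinases, and MMP10 is a stromelysin. MMP7 (matrilysin) is among the smallest of the family and a textbook target of β-catenin with TCF. MMP14 and MMP15 sit in the plasma membrane, and MMP14 activates the MMP2 precursor in a complex that holds TIMP2. TIMPs bind the active site of the proteases one to one. TIMP1 and TIMP2 are secreted, whereas TIMP3 stays bound to the matrix and also blocks ADAM proteases such as ADAM17.

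Libraries held from 15483683 gene counts, in parental 1, up to 28648044, in EV 1B9 1. Reads without an annotated feature made up 10.02% in parental 1 and 5.505% in KO 2F4 2 but 1.475% to 2.67% in the other 6 libraries. The rank correlation between a gene's GC content and its deviation from its mean over the libraries ran from -0.505 (EV 1B9 2) to 0.462 (KO 2F4 2), and both EV 1B9 libraries were below -0.48. PDE10A had 120 and 55 counts in parental, 183 and 220 in EV 1B9, but 4 and 12 in KO 5H5. KO 2F4 had 4 and 31. In CPM, PDE10A in KO 2F4 2 (2.25) was close to the lowest control, parental 2 (2.55), while the other knockout libraries had 0.196 to 0.438. Some values for KO 2F4 are therefore also given without KO 2F4 2, though not all that depend on it. All 9 epithelial markers had reads in every line, with a summed level of 5413 to 20485 CPM, most of it keratins. EPCAM, the epithelial adhesion gene, was lower in knockout than in control libraries (-3.16, SE 0.65, edgeR adjusted p = 0.041), a call that did not hold under 10 of the 18 alternatives, among them the omission of any 1 library but parental 1. KRT8 and KRT18 were higher in both clones than in EV 1B9, and KRT7 was higher in KO 5H5, though the call was lost under 10 of 15 alternatives for KRT8 in KO 2F4, without KO 5H5 1 for KRT18 in KO 5H5 (adjusted p = 0.0502) and without EV 1B9 1 for KRT7 (adjusted p = 0.108). The fibroblast markers summed to 926 and 2010 CPM in KO 5H5 and to between 7.7 and 151 CPM in the other 3 lines, but COL1A1 alone supplied 914 and 1987 CPM of the KO 5H5 sums. PDGFRB was also higher in KO 5H5 than in EV 1B9, COL1A2 was lower there (-2.93, SE 0.60, edgeR adjusted p = 0.0171), and COL3A1 was at 0 in all 3 clones. The haematopoietic and endothelial markers did not exceed 7.22 CPM in sum.

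MMP7, MMP10 and MMP1 lie within 1 cluster of protease genes on chromosome 11, and reads of MMP7 and MMP10 were scarce in both knockout clones. Their promoters, from 250 bases before to 50 after the start of the gene in RefSeq (GRCh38.p14), are shown beside that of TIMP3, which had no reads in KO 2F4. Capitals mark the motifs found.
MMP7: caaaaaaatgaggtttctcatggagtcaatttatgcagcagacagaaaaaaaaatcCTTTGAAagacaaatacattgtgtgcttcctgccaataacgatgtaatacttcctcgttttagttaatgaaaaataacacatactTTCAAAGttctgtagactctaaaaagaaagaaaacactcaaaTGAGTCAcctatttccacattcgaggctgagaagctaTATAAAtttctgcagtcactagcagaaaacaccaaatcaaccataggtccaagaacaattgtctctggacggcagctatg
MMP10: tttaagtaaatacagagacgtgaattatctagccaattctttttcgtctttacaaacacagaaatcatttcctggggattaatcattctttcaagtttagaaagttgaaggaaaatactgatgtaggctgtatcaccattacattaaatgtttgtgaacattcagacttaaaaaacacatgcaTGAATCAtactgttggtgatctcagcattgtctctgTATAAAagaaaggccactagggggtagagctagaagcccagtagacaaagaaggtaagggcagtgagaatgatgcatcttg
TIMP3: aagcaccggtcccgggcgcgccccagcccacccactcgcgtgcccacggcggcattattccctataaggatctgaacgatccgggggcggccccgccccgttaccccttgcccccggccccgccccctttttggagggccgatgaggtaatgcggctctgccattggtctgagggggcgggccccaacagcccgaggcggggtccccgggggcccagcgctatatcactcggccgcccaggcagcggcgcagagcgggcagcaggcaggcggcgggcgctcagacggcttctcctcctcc
The windows are chr11:102530698-102530997 (minus strand) for MMP7, chr11:102780579-102780878 (minus strand) for MMP10 and chr22:32801455-32801754 (plus strand) for TIMP3.

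The search used 4 motifs and covered the 6 members with a RefSeq promoter in the table (MMP7, MMP10, MMP14, MMP15, TIMP1 and TIMP3) of the 10. The AP-1 motif TGANTCA, sought on both strands, stood at -67 in MMP7 (TGAGTCA) and at -67 in MMP10 (TGAATCA), and 7.71% of all 35116 promoters held it. The TATA box TATAAA, sought on the strand of the gene, began at -30 in MMP7 and at -31 in MMP10, against 7.33% of all promoters. The TCF/LEF motif (AACAAAG in its first form, ATCAAAG in the second, TACAAAG in the third and TTCAAAG in the fourth, on either strand) occurred at -194 and -109 in MMP7, in no other of the 6, and in 13.8% of all promoters. The cAMP response element TGACGTCA was in none of the 6 windows and in 1.85% of all. These matches are letters in a window and say nothing of binding. The 6 promoters differed in base composition. MMP7 and MMP10 had 35.7% and 36.3% GC with 4 and 2 CpG sites, whereas TIMP3 and MMP15 had 72.7% and 75.3% GC with 31 and 39 CpG sites. TIMP1 (65.0% GC, 16 CpG sites) and MMP14 (55.0%, 10 CpG sites) were nearer to the median promoter, at 58.7% GC.

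Levels are TMM-scaled CPM, which set the count of a gene against the size of its library, given as mean ± SD of the 2 libraries of a line where an error is shown. Adjusted p-values come from the quasi-likelihood test of edgeR, corrected after Benjamini and Hochberg over all tested genes, with a threshold of 0.05. Differences are log2 fold changes, each with the standard error (SE) of the fit. Gene coordinates are those of GENCODE 29 on GRCh38.

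**Figure D1:**
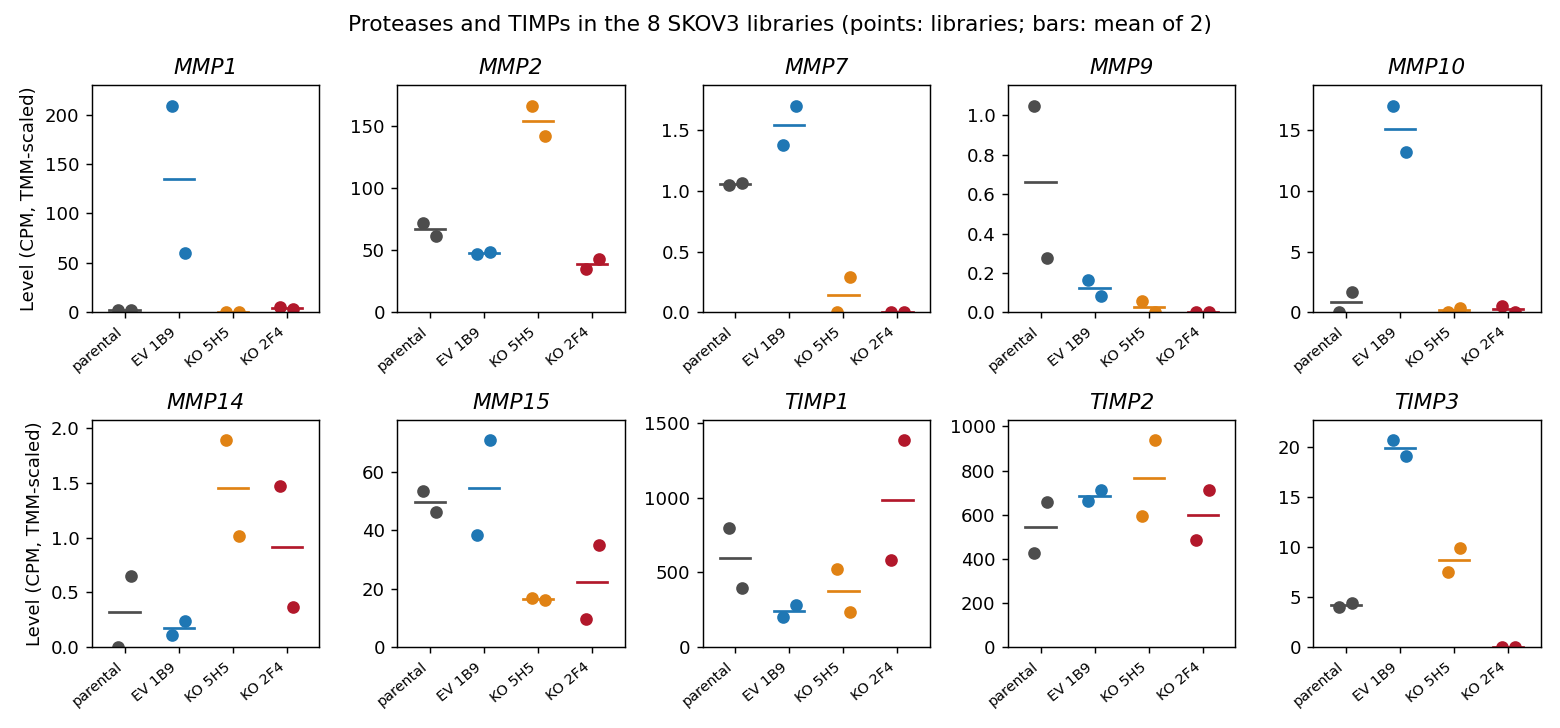
Level of each member in CPM (vertical axis, linear, 1 scale per gene) by line, with 1 point per library and a bar at the mean of 2. MMP1 and MMP10 stand high in both EV 1B9 libraries, MMP2 in both KO 5H5 libraries, and TIMP3 and MMP7 are at 0 in both KO 2F4 libraries.

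MMP1, the interstitial collagenase (ENSG00000196611.5, chr11:102789920-102798160, minus strand), was high in 1 line, EV 1B9. It had 209 and 60.4 CPM there, from 7735 and 1496 counts. Parental cells had 2.93 and 2.36 CPM, KO 5H5 had 0.572 and 0.766 CPM, and KO 2F4 had 5.59 and 3.20 CPM. The line order EV 1B9, KO 2F4, parental, KO 5H5 held without overlap of the libraries of neighbouring lines, although the 2 EV 1B9 libraries themselves lay far apart. The EV 1B9 level was the reason for including the gene, so it is a description without a test. Among the other lines, KO 2F4 stood above KO 5H5 by a log2 fold change of 2.70 (SE 0.61), which missed the threshold (edgeR adjusted p = 0.0945) and passed it in 11 of 15 alternative analyses. KO 5H5 against parental gave -1.95 (SE 0.62, edgeR adjusted p = 0.279). MMP1 shares 150 exonic bases with WTAPP1 on the other strand, and WTAPP1 had 0 counts in every library.

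MMP10, stromelysin 2 (ENSG00000166670.10, chr11:102770503-102780628, minus strand), was lower in both knockout clones than in EV 1B9, and parental cells had few reads too. EV 1B9 had 17.0 and 13.2 CPM, from 627 and 327 counts. Parental had 0 and 1.71 CPM, KO 5H5 0 and 0.401 CPM, and KO 2F4 0.490 and 0 CPM, so 1 library of each of those lines had no read. Against EV 1B9, MMP10 changed by -6.06 in KO 5H5 (SE 1.35, edgeR adjusted p = 0.0328) and by -5.79 in KO 2F4 (SE 1.37, edgeR adjusted p = 0.0225). With offsets for GC content and gene length the values were -5.78 (edgeR adjusted p = 0.0277) and -5.43 (edgeR adjusted p = 0.0245), whereas DESeq2 made neither call (adjusted p = 0.208 and 0.149). Against parental cells the differences were -2.00 (SE 1.41, edgeR adjusted p = 0.7) and -1.73 (SE 1.43, edgeR adjusted p = 0.653), and without parental 2, which held all 37 parental reads, both turned positive (5.33 and 5.59). The contrast of all knockout with all control libraries was -5.12 (SE 1.31), with an edgeR adjusted p of 0.107, and it passed at 0.0211 without parental 1.

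MMP7, matrilysin (ENSG00000137673.9, chr11:102520508-102530753, minus strand), was detected at a low level in both controls and hardly at all in the clones. Parental cells had 1.05 and 1.06 CPM (14 and 23 counts) and EV 1B9 had 1.38 and 1.70 CPM (51 and 42 counts). KO 5H5 had 0 and 0.292 CPM (0 and 8 counts), and neither KO 2F4 library had a read. Every control library was above every knockout library. A count of 0 over both KO 2F4 libraries allows up to 3 counts, or 0.0878 CPM, by counting error alone, which puts KO 2F4 at least 17.2-fold lower than EV 1B9 and at least 12.1-fold lower than parental. The fall in KO 2F4 against EV 1B9 passed the test (edgeR adjusted p = 0.0471), but not without EV 1B9 1 (0.0941), EV 1B9 2 (0.131) or KO 2F4 2 (0.0517), nor with offsets for GC content and gene length (0.0675). KO 2F4 against parental had an edgeR adjusted p of 0.18, and KO 5H5 against EV 1B9 gave -3.27 (SE 1.59, edgeR adjusted p = 0.323). Knockout against control missed the threshold in edgeR (adjusted p = 0.13), while DESeq2 called it.

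MMP2, gelatinase A (ENSG00000087245.13, chr16:55389700-55506691, plus strand), was highest in 1 clone, KO 5H5. It had 166 and 142 CPM there, above all other libraries. Parental had 71.8 and 61.4 CPM, EV 1B9 46.5 and 48.2 CPM, and KO 2F4 34.7 and 42.8 CPM. MMP2 rose in KO 5H5 against EV 1B9, with a log2 fold change of 1.70 (SE 0.38, edgeR adjusted p = 0.024), and was lower in KO 2F4 than in KO 5H5 by a change of -1.99 (SE 0.38, edgeR adjusted p = 0.0491). KO 2F4 against EV 1B9 gave -0.28 (SE 0.38, edgeR adjusted p = 0.64) and KO 5H5 against parental 1.21 (SE 0.38, edgeR adjusted p = 0.282). The first passed as lower in 1 of 15 alternatives, the offsets for GC content and gene length (edgeR adjusted p = 0.0421). The rise in KO 5H5 rests on 4 libraries, and leaving out any 1 of them ended the call (adjusted p of 0.059 to 0.258). The difference between the clones was lost without either KO 5H5 library (0.0872 and 0.0809) and with another scaling of library sizes (0.0712). Of the fibroblast markers, COL1A1 and PDGFRB were also highest in KO 5H5, while COL1A2 was lower there than in EV 1B9. COL3A1 and FAP were at 0 in KO 5H5 and in EV 1B9 alike. The part of these markers in the MMP2 level was not tested.

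MMP9, gelatinase B (ENSG00000100985.7, chr20:46008908-46016561, plus strand), was close to absent. It had 14 and 6 counts in parental, 6 and 2 in EV 1B9, 1 and 0 in KO 5H5 and no read in KO 2F4. The highest library, parental 1, reached 1.05 CPM. MMP9 was the 1 member that did not pass the filter on low counts, so no comparison tested it, and 430 of its exonic bases lie under the antisense gene SLC12A5-AS1.

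MMP15, a membrane-type protease (ENSG00000102996.5, chr16:58025566-58046901, plus strand), had lower values in both clones than in both controls. Parental had 53.3 and 46.4 CPM and EV 1B9 38.4 and 70.8 CPM. KO 5H5 had 16.9 and 16.1 CPM and KO 2F4 9.76 and 34.9 CPM. The lowest control library, EV 1B9 1, was just above the highest knockout library, KO 2F4 2, so the classes did not overlap. Knockout against control gave -1.45 (SE 0.41), which missed the threshold (edgeR adjusted p = 0.116) and passed it in 7 of 18 alternatives, among them the offsets for GC content and length (-1.68, edgeR adjusted p = 0.0217) and the omission of KO 2F4 2 (-1.87, edgeR adjusted p = 0.0371). Single clones gave -1.72 (SE 0.53, edgeR adjusted p = 0.104) for KO 5H5 and -1.29 (SE 0.53, edgeR adjusted p = 0.126) for KO 2F4 against EV 1B9. With the offsets both passed, at -1.84 (edgeR adjusted p = 0.0125) and -2.05 (edgeR adjusted p = 0.00464).

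MMP14, the activator of the MMP2 precursor (ENSG00000157227.13, chr14:22836557-22849027, plus strand), was scarce, with at most 33 counts in a library. Parental had 0 and 0.648 CPM and EV 1B9 0.108 and 0.242 CPM. KO 5H5 reached 1.89 and 1.02 CPM, and KO 2F4 1.47 and 0.363 CPM. The classes overlapped, since parental 2 exceeded KO 2F4 2. Knockout against control was 2.18 (SE 1.00, edgeR adjusted p = 0.331). Per kilobase of exon, MMP15 averaged 8.1 CPM over the 8 libraries and MMP14 0.161 CPM.

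TIMP1 (ENSG00000102265.12, chrX:47582313-47586789, plus strand) was the most abundant member per length. Parental had 800 and 399 CPM, EV 1B9 204 and 280 CPM, KO 5H5 520 and 233 CPM, and KO 2F4 580 and 1384 CPM. The 2 highest libraries, KO 2F4 2 and parental 1, were those with the most reads outside annotated features, at 5.505% and 10.02%; their part in the level was not tested. TIMP1 rose in KO 2F4 against EV 1B9 by 2.03 (SE 0.54, edgeR adjusted p = 0.0321), and the libraries of the lines did not overlap. The value was 1.24 (edgeR adjusted p = 0.136) without KO 2F4 2, 1.77 (edgeR adjusted p = 0.061) without EV 1B9 1, and 1.15 (edgeR adjusted p = 0.102) with offsets for GC content and length. KO 5H5 against EV 1B9 was 0.64 (SE 0.54, edgeR adjusted p = 0.591), KO 2F4 against parental 0.71 (SE 0.54, edgeR adjusted p = 0.633), and knockout against control 0.68 (SE 0.54, edgeR adjusted p = 0.583).

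**Figure D2:**
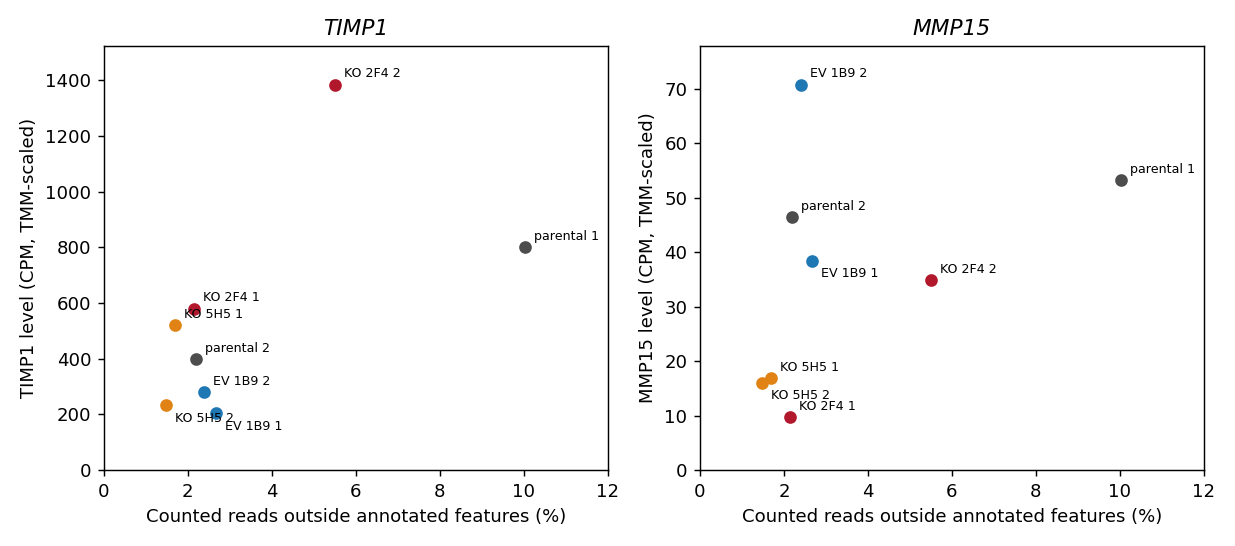
Level of TIMP1 (left) and MMP15 (right) in CPM against the share of counted reads outside annotated features, with 1 point per library. KO 2F4 2 and parental 1 lie to the right at 5.505% and 10.02% and have the 2 highest TIMP1 levels, and the other 6 libraries lie between 1.475% and 2.67%.

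TIMP2 (ENSG00000035862.12, chr17:78852977-78925387, minus strand) was the steadiest member. Parental had 427 and 658 CPM, EV 1B9 663 and 711 CPM, KO 5H5 594 and 937 CPM, and KO 2F4 486 and 713 CPM. All 4 lines overlapped with at least 1 other. No contrast of TIMP2 passed the test; knockout against control was 0.11 (SE 0.32, edgeR adjusted p = 0.896), and the largest among the lines was 0.50 (SE 0.44, edgeR adjusted p = 0.781), in KO 5H5 against parental. TIMP2 shares 367 exonic bases with the antisense gene AC022966.1 on the other strand and 198 with CEP295NL on its own strand, and the counts of reads there are uncertain.

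TIMP3 (ENSG00000100234.11, chr22:32801701-32863043, plus strand) had no read in either KO 2F4 library. The other lines had 53 and 95 counts in parental, 765 and 472 in EV 1B9, and in KO 5H5 132 and 271. In CPM these were 3.99 and 4.40, 20.7 and 19.1, and 7.55 and 9.89, so the 4 lines formed separate steps with libraries of a line close together. The KO 2F4 level was at least 228-fold lower than in EV 1B9, at least 102-fold lower than in KO 5H5 and at least 48.3-fold lower than in parental, against the 3 counts that 0 counts allow over the line. This absence was the reason for including the gene and is given without a test. Elsewhere, TIMP3 in EV 1B9 against parental was 2.24 (SE 0.50), just outside the threshold (edgeR adjusted p = 0.0609) and inside it in 9 of 15 alternatives. KO 5H5 lay between the controls, at -1.18 against EV 1B9 (SE 0.50, edgeR adjusted p = 0.238) and 1.06 against parental (SE 0.51, edgeR adjusted p = 0.579). TIMP3 lies inside SYN3 on the other strand with no shared exonic base, and SYN3 had 37 counts in parental 1, 2 in EV 1B9 1 and none elsewhere.

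Set on 1 scale per length, the balance of transcripts leaned to the inhibitors in all 8 libraries. The 7 proteases together reached 29 and 25.8 CPM per kilobase of exon in parental, 135 and 64.8 in EV 1B9, 38.2 and 33.4 in KO 5H5, but 12.7 and 18.3 in KO 2F4. The 3 TIMPs together reached 596 and 377, 254 and 312, 445 and 320, and 463 and 1025 in the same order. For every 100 units of TIMP there were 4.87 and 6.85 units of protease in parental, 52.9 and 20.8 in EV 1B9, 8.58 and 10.4 in KO 5H5, but 2.74 and 1.78 in KO 2F4. The lines did not overlap in this ratio: EV 1B9 was highest and KO 2F4 lowest.

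The log2 ratio of the sums was -4.11 ± 0.35 in parental, -1.59 ± 0.95 in EV 1B9, -3.40 ± 0.20 in KO 5H5 but -5.50 ± 0.44 in KO 2F4 (SD, n = 2 each). Control libraries averaged -2.85 ± 1.57 and knockout libraries -4.45 ± 1.24 (SD, n = 4 each). The difference of -1.60 is about as large as the spread within a class: EV 1B9 lay above both clones, and parental lay below KO 5H5. No test is given for it, since the members were chosen with MMP1 in EV 1B9 and TIMP3 in KO 2F4 in view, and leaving out 1 library moved it between -2.1 and -0.95. Without MMP1 and TIMP1, the most abundant of each kind, it was -0.54, and with CPM not divided by length -1.05.

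**Figure D3:**
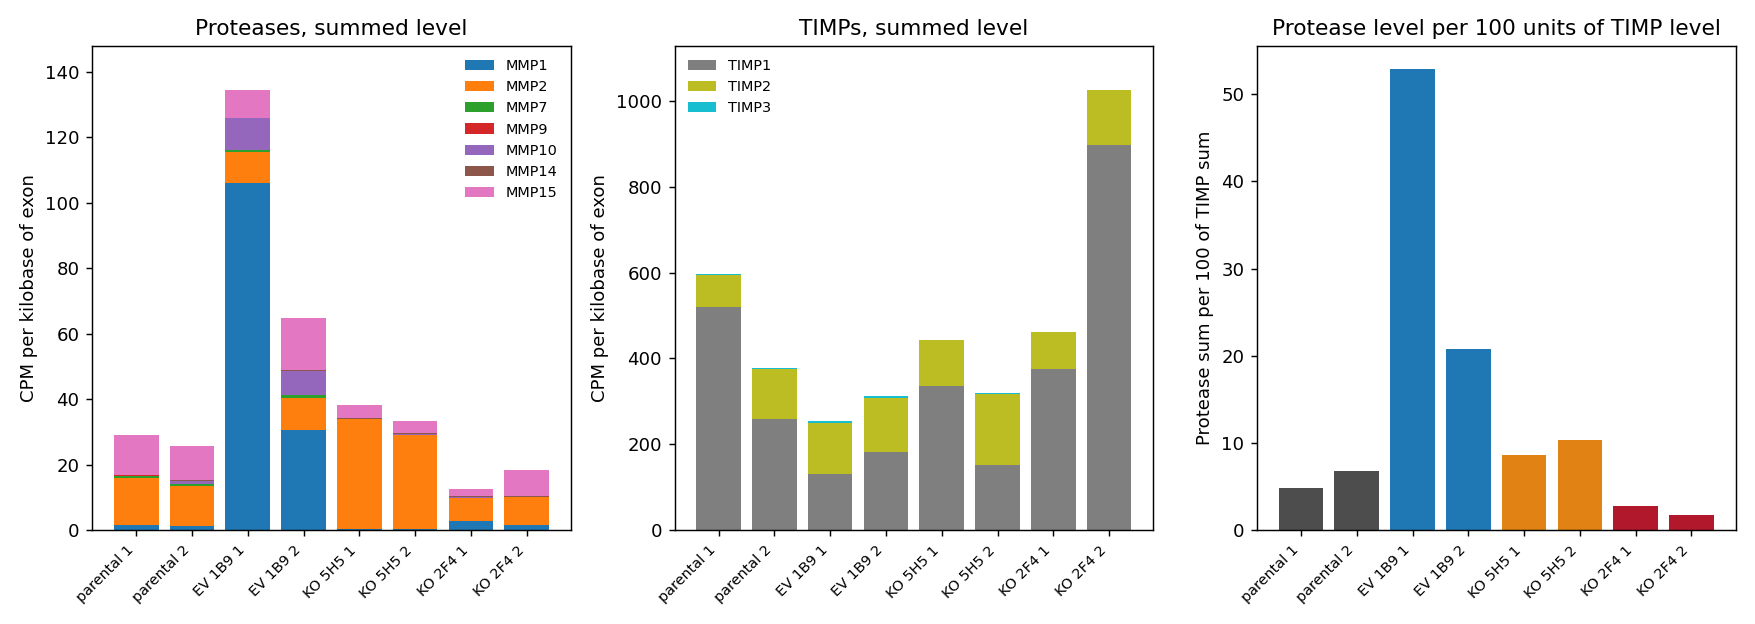
Summed level of the 7 proteases (left) and 3 TIMPs (middle), in CPM per kilobase of exon and stacked by gene, and protease level per 100 units of TIMP (right), with 1 bar per library. EV 1B9 stands out at 52.9 and 20.8 by its MMP1, and KO 2F4 is lowest at 2.74 and 1.78.

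Different genes made up the sums in different lines. MMP1 supplied 78.9% and 47.3% of the protease sum in EV 1B9 but 0.761% and 1.17% in KO 5H5, where MMP2 supplied 88.1% and 86.1%. In parental cells MMP2 (50.2% and 48.2%) and MMP15 (41.5% and 40.6%) shared it. In KO 2F4 the leading gene was again MMP2, at 55.4% and 47.5%, with MMP15 at 17.4% and 43.2%. On the inhibitor side TIMP1 and TIMP2 led in every library, and TIMP3 supplied at most 1.77% of the sum, in EV 1B9 1. MMP2 per 100 units of TIMP2, the pair that meets in the MMP14 complex, was 31.9 and 17.3 in KO 5H5 and 19.2 and 10.7 in parental, which overlap, and 6.87 to 8.14 across EV 1B9 and KO 2F4.

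Counted over the comparisons, few members passed the test, and the share of all genes that passed differs widely between comparisons. All members but MMP9 passed the filter, and MMP1 and TIMP3 were left untested wherever EV 1B9 or KO 2F4, respectively, entered. In knockout against control, 0 of 7 tested members were called by edgeR, against 1.42% of all 13508 genes. At an unadjusted p under 0.05 there were 3 (15.1% of all genes), DESeq2 called 2, MMP7 and MMP15 (5.82% of all genes), and limma-voom with the line as block and edgeR on counts summed per line called 0 each. MMP7 and MMP15 were the 2 tested members without overlap between the classes, a state that 10.3% of all genes shared. The median log2 change of the 7 was 0.11, against -0.14 over all genes.

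In KO 2F4 against EV 1B9, 1 of 7 tested members was higher (TIMP1) and 2 were lower (MMP7 and MMP10), where 13.0% of all 15551 genes were called, 6.87% higher and 6.11% lower. The libraries did not overlap for 6 of the 7, against 59.0% of all genes. In KO 5H5 against EV 1B9, 1 of 8 was higher (MMP2) and 1 lower (MMP10), where 4.38% of all genes were called, 2.69% higher and 1.68% lower, and 6 of the 8 did not overlap, against 54.9%. KO 2F4 against KO 5H5 called 1 of 8 (MMP2, lower), where 0.392% of all genes were called and 0.231% were lower, and 3 of the 8 did not overlap, against 40.6%. These comparisons share libraries and are not independent of each other.

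The comparisons with parental cells gave no call of a member in edgeR. EV 1B9 against parental called 0 of 8 members (1.34% of all genes), with 3 at an unadjusted p under 0.05 (21.7%) and 1 call by DESeq2, TIMP3 (10.0%), and 6 did not overlap (57.6% of all genes). KO 5H5 against parental called 0 of 9 (0.740% of all genes), with 3 at an unadjusted p under 0.05 (8.86%) and 0 by DESeq2 (2.53%), and 6 did not overlap (44.7% of all genes). KO 2F4 against parental called 0 of 8 (1.34% of all genes), with 1 at an unadjusted p under 0.05 (13.8%) and 1 by DESeq2, MMP7 (5.07%), and 4 did not overlap (40.8% of all genes).

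**Figure D4:**
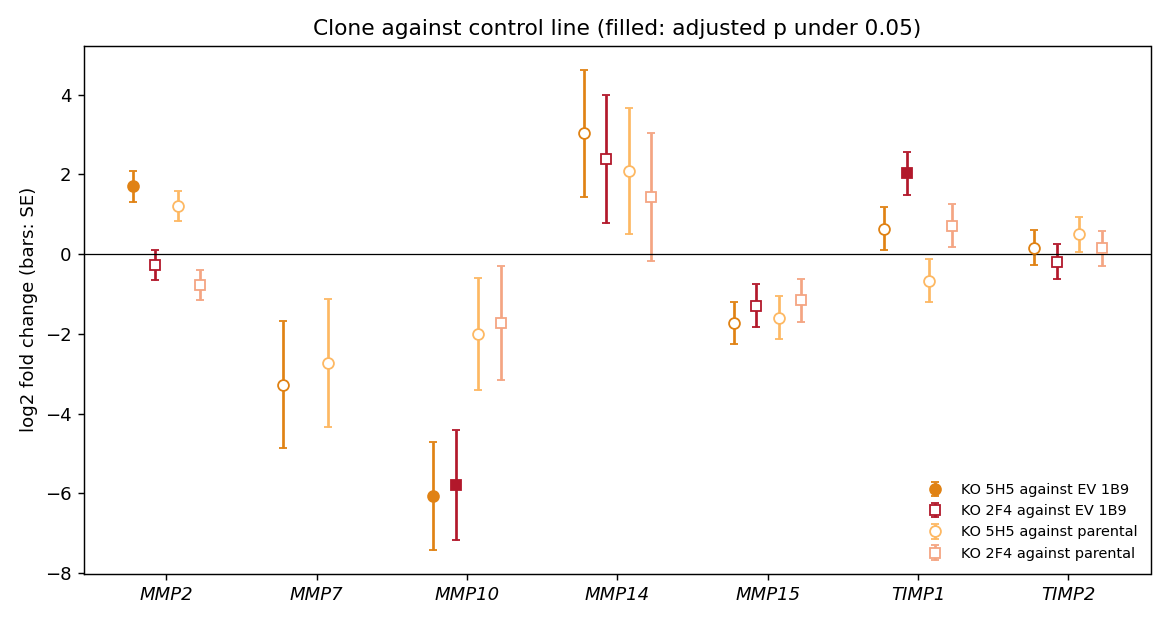
log2 fold change of each clone against EV 1B9 (dark) and against parental (light) for 7 members, with bars of 1 SE; filled symbols have an edgeR adjusted p under 0.05, and MMP7 in KO 2F4 is not drawn because it had no reads there. MMP10 lies near -6 against EV 1B9 in both clones, MMP2 is above 0 in KO 5H5 but below 0 in KO 2F4, and MMP15 lies below 0 in all 4 comparisons without passing in any.

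Among the 16 other proteases of the family, 5 had enough reads to be tested, and 1, MMP17, passed in knockout against control, where 1.42% of all genes passed. MMP17 encodes a membrane protease held by a lipid anchor. Parental had 5.12 and 4.58 CPM and EV 1B9 6.79 and 11.2 CPM, while KO 5H5 had 1.03 and 0.255 CPM and KO 2F4 0.245 and 0.0726 CPM. MMP17 changed by -4.15 in the knockout libraries (SE 0.69, edgeR adjusted p = 0.0173). The classes did not overlap, a state that 10.3% of all genes shared. MMP17 was also lower in KO 5H5 against EV 1B9 (-3.83, SE 0.77, edgeR adjusted p = 0.0174), KO 2F4 against EV 1B9 (-5.69, SE 0.92, edgeR adjusted p = 0.00217) and KO 2F4 against parental (-4.80, SE 0.93, edgeR adjusted p = 0.0204). KO 5H5 against parental did not pass (-2.95, SE 0.77, edgeR adjusted p = 0.17). The class call was lost without EV 1B9 1 (adjusted p = 0.0525), EV 1B9 2 (0.0582) or KO 2F4 1 (0.0711), as well as with counts summed per line (-4.14, adjusted p = 0.205) and with limma-voom and the line as random block (-4.47, adjusted p = 0.124). MMP19 had no reads in EV 1B9, 1.54 ± 0.156 CPM in parental and 2.64 ± 0.889 CPM in KO 2F4, and both differences from EV 1B9 passed (edgeR adjusted p = 0.046 and 0.00852). The first was lost without EV 1B9 1 (adjusted p = 0.0857) or EV 1B9 2 (adjusted p = 0.0806) and with GC and length offsets (adjusted p = 0.0504).

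Of 5 other inhibitors, 2 were tested and 0 passed in any of the 7 comparisons, where 0.392% to 13.0% of all genes passed. TIMP4 had 0 counts in every library. RECK, a membrane-anchored inhibitor, averaged 3.17 ± 1.4 CPM in parental and 6.73 ± 1.98 in EV 1B9, against 5.6 ± 1.12 in KO 5H5 and 1.75 ± 1.96 in KO 2F4.

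The related ADAM and ADAMTS proteases, which TIMP3 also inhibits in part, gave no call in knockout against control. There 0 of 7 and 0 of 10 tested passed, against 1.42% of all genes. In KO 2F4 against EV 1B9, 1 ADAM of 8 rose and 1 fell, and 1 ADAMTS of 12 rose and 4 fell, where 6.87% of all genes rose and 6.11% fell. ADAM15 rose by 2.38 (SE 0.53, edgeR adjusted p = 0.015). ADAM10, a sheddase, fell by 1.88 (SE 0.52, edgeR adjusted p = 0.0353), a value that became -0.75 with GC and length offsets (edgeR adjusted p = 0.257). ADAMTS15 averaged 39.2 ± 12.4 CPM in parental and 26.2 ± 9.76 in EV 1B9, against 15.7 ± 3.92 in KO 5H5 and 1.78 ± 0.156 in KO 2F4. It fell in KO 2F4 against each other line, with -3.88 against EV 1B9 (SE 0.48, edgeR adjusted p = 0.00048), -4.46 against parental (SE 0.48, edgeR adjusted p = 0.000737) and -3.14 against KO 5H5 (SE 0.48, edgeR adjusted p = 0.0188). ADAMTS14, a processor of procollagen, had 0 counts in KO 2F4 like TIMP3, and passed against EV 1B9 (edgeR adjusted p = 0.00756) and parental (edgeR adjusted p = 0.0239). ADAMTS12 ran the other way, with 7.07 ± 0.959 CPM in KO 2F4, 1.61 ± 0.0634 CPM in KO 5H5 and none in EV 1B9 (edgeR adjusted p = 0.00189 and 0.011). ADAMTS17 fell by 3.05 in KO 5H5 against EV 1B9 (SE 0.60, edgeR adjusted p = 0.0133), though not without KO 5H5 2 (adjusted p = 0.15).

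Of 13 genes that activate, dock or clear the proteases, 11 were tested in knockout against control and 0 passed (1.42% of all genes). PLAUR, the urokinase receptor, rose by 2.00 in KO 2F4 against EV 1B9 (SE 0.45, edgeR adjusted p = 0.0148), though not without EV 1B9 1 (adjusted p = 0.0594). LRP1, the endocytic receptor that clears protease and TIMP complexes, rose by 2.24 in KO 5H5 against EV 1B9 (SE 0.53, edgeR adjusted p = 0.0337), with 1.58 and an adjusted p of 0.221 without EV 1B9 1. Of 21 transcription factors with known sites in protease promoters, 19 were tested in knockout against control and 0 passed (1.42% of all genes). FOSL1, a subunit of AP-1, rose in KO 2F4 against EV 1B9 by 2.22 (SE 0.49, edgeR adjusted p = 0.0148). FOSL2, also of AP-1, rose against EV 1B9 in KO 5H5 by 1.73 (SE 0.44, edgeR adjusted p = 0.0447) and in KO 2F4 by 1.64 (SE 0.44, edgeR adjusted p = 0.0302), and neither call held without EV 1B9 1 (adjusted p = 0.311 and 0.198). EV 1B9, the line with the most MMP1 and MMP10, had the lowest means of both subunits, 184 ± 14.4 CPM for FOSL1 and 90.3 ± 27.5 CPM for FOSL2. Neither subunit passed in EV 1B9 against parental (edgeR adjusted p = 0.222 for FOSL1 and 0.176 for FOSL2). A link between these RNA levels and the proteases was not tested.

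Of 19 matrix proteins known as substrates, 16 were tested and 0 passed in knockout against control (1.42% of all genes). In KO 5H5 against EV 1B9, 4 rose and 2 fell (2.69% and 1.68% of all genes), and in KO 2F4 against EV 1B9, 3 rose and 3 fell (6.87% and 6.11%). FN1, the fibronectin gene, had 1.99 ± 1.24 CPM in EV 1B9, against 479 ± 410 CPM in parental, 789 ± 26.2 CPM in KO 2F4 and 893 ± 393 CPM in KO 5H5. TNC, tenascin C, likewise had 0.324 ± 0.228 CPM in EV 1B9 and 6.84 ± 0.595 CPM to 7.83 ± 2.86 CPM in the other lines. SPARC, a matrix glycoprotein, had 3.1 ± 0.505 CPM in EV 1B9 and 9.73 ± 2.67 CPM to 79.5 ± 31.5 CPM elsewhere. COL1A1, a fibroblast marker above and a chain of fibrillar collagen, had 71.7 ± 69.1 CPM in EV 1B9 and 1450 ± 759 CPM in KO 5H5. The rise was 4.34 (SE 0.87, edgeR adjusted p = 0.0243), and KO 2F4 had 18.2 ± 22.2 CPM and parental 125 ± 1.46 CPM. COL1A2, another such chain, was highest in EV 1B9, at 18.8 ± 11.3 CPM. It had 8.27 ± 1.29 CPM in parental, 2.42 ± 1.32 CPM in KO 5H5 but 0.243 ± 0.0667 CPM in KO 2F4. It was lower in KO 2F4 than in EV 1B9 (-6.26, SE 0.75, edgeR adjusted p = 0.000254) and parental (-5.08, SE 0.76, edgeR adjusted p = 0.00445), and in KO 5H5 than in EV 1B9, a call lost without EV 1B9 2 (adjusted p = 0.156) or KO 5H5 1 (adjusted p = 0.165).

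The 12 listed neighbours of the chromosome 11 cluster included 6 further proteases with at most 12 counts in any library. Of the others, 5 were tested in knockout against control and 0 passed (1.42% of all genes), and 6 were tested between lines. Their median log2 change was 1.16 in EV 1B9 against parental, -1.66 in KO 5H5 against EV 1B9 and -1.39 in KO 2F4 against EV 1B9, where the median of all genes was -0.04, -0.10 and -0.13. In KO 5H5 against parental it was -0.43, in KO 2F4 against parental -0.35 and in KO 2F4 against KO 5H5 0.24. In KO 2F4 against EV 1B9 TMEM123 fell by 2.09 (SE 0.49, edgeR adjusted p = 0.0186) and DYNC2H1 by 3.10 (SE 0.83, edgeR adjusted p = 0.0364). Neither passed with offsets for GC content and length, at -1.13 (edgeR adjusted p = 0.0814) and -1.93 (edgeR adjusted p = 0.105). YAP1 averaged 48 ± 14.7 CPM in EV 1B9, 20.6 ± 6.86 in parental, 18 ± 4.26 in KO 2F4 and 14.7 ± 4.76 in KO 5H5. The exons of MMP1, MMP7 and MMP10 have 43.4%, 41.3% and 43.7% GC, the lowest of the 10 members, and the EV 1B9 libraries, with KO 5H5 2, were those with relatively more reads from genes of low GC content. With GC and length offsets MMP10 kept its calls against EV 1B9 in both clones, and MMP7 lost its call in KO 2F4. The part of GC content in the levels of EV 1B9 was not tested.

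Genes whose pattern was most like a member's were ranked by the Pearson correlation of log2 CPM over the 8 libraries among 10982 protein-coding genes, as a description. The 2 libraries of a line come from the same cells at different passages, so 8 points hold 4 lines. Most like MMP1 were PYURF (0.986), SLC66A1L (0.98), SLBP (0.976), FADS1 (0.975) and GRK4 (0.963). Most like MMP7 were CACNG4 (0.99), NSG1 (0.981), RNF212 (0.975), WNT6 (0.972) and CDON (0.972). Most like TIMP3 were SPINT2 (0.986), EGLN1 (0.978), REV3L (0.978), TAF1B (0.974) and ANKRD12 (0.973). SPINT2, an inhibitor of serine proteases, had mean levels of 130 CPM in parental, 229 CPM in EV 1B9, 156 CPM in KO 5H5 but 36.7 CPM in KO 2F4, the same line order as TIMP3.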

How the data were processed

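Directional libraries were made from RNA of untreated cultures and sequenced as paired ends, per the labels' protocols. The values are raw read counts, as the authors deposited them. Per the submitters' processing notes, which give no roles, HTSeq 0.11.3, STAR 2.7.3a and DESeq2 1.26.0 were used, besides bcl2fastq 2.18.0.12, with the build GRCh38. Annotation release and strand setting are not stated there. The 5 summary lines of the table (24.08% to 44.64% of counted reads) stayed out of library sizes and tests, and all 8 columns matched a library by title. Symbols came from a gene name reference, and coordinates, exon lengths and GC content from GENCODE 29 (GRCh38).

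TMM scaled the counts, and filterByExpr removed low genes (minimum count 10, total at least 15). Quasi-likelihood fits of edgeR 4.0.16 in R 4.3.3 were adjusted after Benjamini and Hochberg, with a threshold of 0.05. Knockout against control used 1 mean per class over 8 libraries and takes the 2 libraries of a line as independent. The 6 line comparisons used 1 mean per line and a shared spread. P-values of the line comparisons therefore rest on differences between passages of a line and not between separate clones. The spread behind the class p-values also holds the differences between the lines of a class. Intervals from a count of 0 (3 counts) cover counting error only.

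The alternatives comprised DESeq2 1.42.0, RLE size factors, no filter, the title suffix as block, GC and length offsets (splines with 5 degrees of freedom) alone and with the block, leaving out each library, and for the classes counts summed per line, limma-voom 3.58.1 with the line as block, and 1 mean per line. The setting with 1 mean per line compared the averages of the line means of each class. Its spread was that between the 2 libraries of a line, without the differences between the lines of a class. Leaving out parental 1 and KO 2F4 2 together was added after seeing the data. When 1 library of a line was left out, the lone library was taken to vary as the rest do. Replicate 2 of each line has the title suffix UnTx, whose meaning is not given.

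The members, the 13 gene lists and the tests were chosen with earlier results of these data known. Named genes are the 10 members, PDE10A, list genes called in knockout against control, up to 4 genes per list with the smallest adjusted p among those called between lines, and the 5 protein-coding genes most correlated with MMP1, MMP7 and TIMP3 at a mean of at least 1 CPM. TIMP4, RECK, YAP1, WTAPP1 and SYN3 were named outside that rule, after their values were seen, as were the marker genes at 0.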

Additional observations from a re-analysis of the deposited data

Results flagged for a closer look

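MMP7 in KO 5H5 2 stood apart from the other 3 knockout libraries, at 0.292 CPM from 8 counts where they had none. MMP9 in KO 5H5 1 stood apart in the same way, at 0.0572 CPM from 1 count, with the other 3 knockout libraries at 0. Both were picked by the gap of 1 sample to its group, set against the range of the group. The 20 groups of 4 libraries looked at would give about 1 such case by chance in every 20, and with 3 values at 0 any read meets the criterion. MMP2 differed between the knockout clones, where KO 2F4 minus KO 5H5 was -1.99 on the log2 scale (edgeR adjusted p = 0.0491), with both libraries of KO 5H5 above both of KO 2F4.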

How the results depend on the processing

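A change of sign smaller than the SE of an uncalled value was not counted as a reversal. Of 846 alternatives for single members, 749 kept direction and side of the threshold, 72 newly passed it, 23 no longer did and 2 reversed. The reversals were MMP10 in KO 5H5 and KO 2F4 against parental, at 5.33 and 5.59 without parental replicate 2, while leaving out KO 5H5 replicate 2 or KO 2F4 replicate 1, the clone libraries with reads, gave -7.26 and -7.29. The number of members called in knockout against control was 0 and became 2 with no filter, 2 with DESeq2, 1 with GC and length offsets, 1 with the offsets and the replicate block, 3 with 1 mean per line, and 2 without parental 1 and KO 2F4 2 together. In EV 1B9 against parental it was 0 and became 2 with no filter, 1 with DESeq2, 1 with offsets and 2 without those libraries together. In KO 5H5 against EV 1B9 it was 2 and became 1 with the replicate block and 5 without those libraries together. It also became 3 each with no filter, with offsets, and with offsets and the block, while DESeq2 kept 2 with MMP15 in place of MMP10. In KO 2F4 against EV 1B9 it was 3 and became 1 with the replicate block. It became 4 with no filter, and 2 each with DESeq2 and with offsets and the block. With GC and length offsets it stayed at 3 but with other genes, MMP10, MMP15 and MMP2 in place of MMP10, MMP7 and TIMP1. Without those libraries together, KO 5H5 against parental went from 0 to 1 and KO 2F4 against parental from 0 to 1, the latter also to 1 with DESeq2. In KO 2F4 against KO 5H5 it was 1 and became 0 with RLE size factors, 0 with the replicate block, and 2 each with no filter, DESeq2, offsets, offsets with the block, and without those libraries together. The cause was not tested. The 3 calls with 1 mean per line rest on the spread between passages of a line. Shares of all genes called are given above for the main test and, where it called no member, for DESeq2. For the other settings no share is given, so their counts of members cannot be set against all genes. Leaving out 1 library gave 0 to 1, 0 to 2, 1 to 3, 2 to 3, 0 to 2, 0 to 1 and 0 to 3 calls in the same order of comparisons. It moved the protease to TIMP log2 ratio between -2.1 and -0.95 and MMP1 in EV 1B9 between 60.4 and 209 CPM, and left TIMP3 in KO 2F4 at 0. No filter also moved the median of all genes in knockout against control from -0.14 to -0.41.

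The replicate block used the title suffix. Deviations of libraries with the same suffix correlated between lines from -0.274 to 0.203, so the libraries share only a suffix and no pairing is shown. Under the block the calls against EV 1B9 of MMP10 in KO 5H5 (adjusted p = 0.054) and of MMP7 (0.0818) and TIMP1 (0.0562) in KO 2F4 were lost, as was that of MMP2 between the clones (0.103), with log2 changes of -6.43 for MMP10, 2.04 for TIMP1 and -1.98 for MMP2. Without MMP1 and TIMP1 the protease to TIMP log2 ratio was -0.54, and without division by length -1.05. Of 756 alternatives for genes of the lists, 69 lost the call. With 2 libraries per line and counts below about 10 for MMP7, MMP9, MMP10 and MMP14 in several libraries, depth limits what can be said of these genes.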
